A study of Mus musculus with 6 samples.

Results

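Splenic CD11b+Gr-1high cells from mice in which myeloid cells accumulate for different reasons were set, as 1 side, against the same cell fraction from wild-type mice. The 4 arrays of the expanded settings came from 2 arrays of IRF8 KO mice without a tumor and 2 arrays of wild-type mice that bore a tumor produced by the AT-3 cell line, a mouse mammary carcinoma line. They were set against 2 arrays of wild-type mice without a tumor, so that 6 of the 6 arrays of the series entered the comparison. The arrays of each side were chosen by sample title alone, and the question was which genes all 4 KO and AT-3 arrays moved together. All 3 groups shared the H-2b background. The labels give no sex, age, tumor stage or number of animals per array, and they do not say whether an array stands for 1 animal or a pool. They state that the cells were sorted by flow cytometry to a purity above 97% in independent experiments, without saying which array came from which. The p-values below therefore measure only the spread between these arrays, which may be partly technical.

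Granulocytes are made in steps. Myeloblasts and promyelocytes divide and fill primary granules with myeloperoxidase and serine proteases, myelocytes divide and fill secondary granules, and band and segmented neutrophils no longer divide and acquire tertiary granules and chemokine receptors. IRF8 is a transcription factor that directs progenitors towards monocytes and dendritic cells and away from granulocytes, and mice without it accumulate granulocytes. Tumors that secrete colony-stimulating factors also drive granulocyte output, and the immature cells that then fill the spleen are often called myeloid-derived suppressor cells. The red pulp of the spleen also holds macrophages that clear aged red cells, and these can carry myeloid surface markers.

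Mean raw signal was between 264.7 and 421.3 on the KO and AT-3 arrays and 397.1 and 379.0 on the wild-type arrays, and the AT-3 arrays were the dimmest. Between 31.0% and 38.4% of probes were detected on the KO and AT-3 arrays, against 32.6% and 32.9% on the wild-type arrays. KO arrays correlated with each other at 0.97, AT-3 arrays at 0.978 and wild-type arrays at 0.99 over the genes tested. KO with AT-3 arrays reached 0.917 to 0.936, and arrays of either with wild-type arrays 0.857 to 0.904, so the arrays were most alike within groups. The sorted fraction was read against 13 measured neutrophil markers. Their summed signal on the linear scale was 219700 to 249600 on the KO and AT-3 arrays and 185100 and 191900 on the wild-type arrays, and S100a8 and S100a9, the calprotectin subunits of neutrophils, differed by 0.07 and 0.38 on the log2 scale without passing the test. Of the 13 markers, 4 were higher (Camp, Cd177, Itgam and Ngp), 2 were lower (Csf3r and Cxcr2) and 7 did not pass. The shares were 30.8% higher and 15.4% lower, against 10% and 11.9% of all genes tested. S100a8 read 14.68 to 15.07 on the KO and AT-3 arrays and 14.92 and 14.85 on the wild-type arrays, so this defining marker was bright on all 6. Ly6g, the Gr-1 antigen gene, had no named probe in the annotation used and was not analysed here.

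All 4 KO and AT-3 arrays shared a programme of higher primary granule and cell division genes and lower macrophage, interferon and cytokine genes. The gene lists below were chosen with earlier results of these data known. Their shares beside those of all genes describe the programme and are no independent test of it. Of 12492 genes tested, 1252 were higher and 1486 lower on the KO and AT-3 arrays (10% and 11.9%, together 21.9%) at a limma adjusted p under 0.05. The fit takes the 4 arrays as replicates of 1 side, so a difference between KO and AT-3 arrays counts as spread. For every one of the 2738 called genes the 4 arrays lay on the same side of both wild-type arrays. This follows largely from the fit and is no separate result. A fit with separate means for KO and AT-3 arrays called 384 genes whose sides overlapped. The sides did not overlap for 48.3% of all genes tested, 3300 of which were not called, so non-overlap alone sets few genes apart here. Called higher genes had a median difference of 1.48 on the log2 scale and called lower genes one of -1.45, against 0.01 over all genes tested. At least 2-fold differences numbered 1068 among the higher and 1198 among the lower genes. With 4 arrays against 2, an exact two-sided permutation test allows 15 splits and a smallest p of 0.0667, so single genes were not tested that way.

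**Figure D1:**
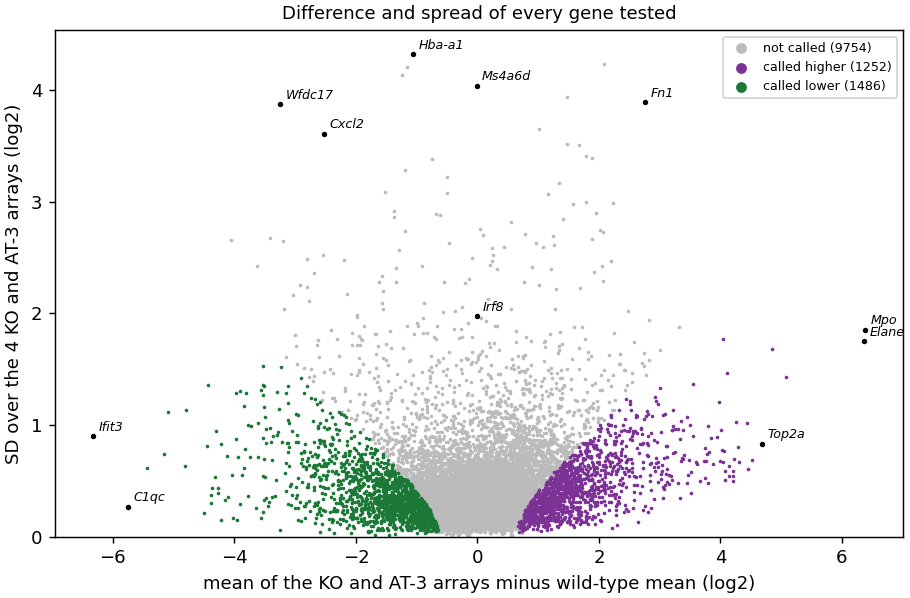
Each point is 1 of the 12492 genes tested. The horizontal axis is the mean of the 4 KO and AT-3 arrays minus the wild-type mean and the vertical axis the SD over those 4 arrays, both on the log2 scale, with genes called higher in purple, lower in green and others in grey. Mpo and Elane are called in spite of an SD above that of most called genes, whereas Fn1, Wfdc17 and Irf8 have a wide SD and are not called.

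The wild-type side rested on 2 arrays, and the number of calls followed them. With wild-type array 1 left out, 104 genes were higher and 178 lower, and with wild-type array 2 left out 62 and 125. In those fits the lone wild-type array is assumed to vary like the others. Leaving out AT-3 array 1 gave 833 higher and 1046 lower genes, and the other arrays of KO and AT-3 moved both counts by less than 1.5 times. KO array 1 was the array farthest from wild type for 50.2% of the higher genes and 37.0% of the lower genes. The balance of calls depended on the scaling between arrays. Higher genes were 45.7% of the calls after quantile normalization, 19.0% with the median of all probes set equal (185 higher, 790 lower) and 17.1% with no scaling between arrays (139 higher, 676 lower). Of the 91 genes named by rule and called, 53 lost the call without wild-type array 1 and 61 without wild-type array 2, while 29 held it under every alternative that gave a value, here and below at an adjusted p under 0.05. Pfkfb4 was the only named and called gene whose direction turned, with averaged probes. Irf8, named but not called, lay between -0.69 and 0.63 over the alternatives. Every value is that of the brightest probe of its gene unless another probe is named, and dimmer probes sometimes gave another value or call.

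**Figure D2:**
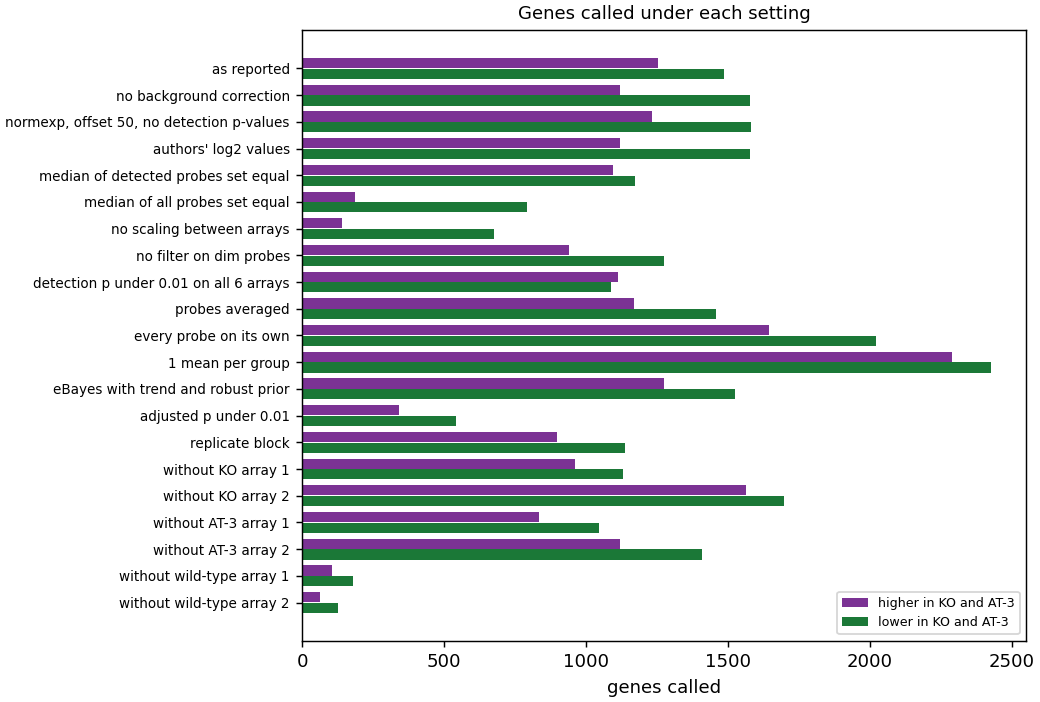
Number of genes called higher and lower on the 4 KO and AT-3 arrays than on the wild-type arrays, as reported and under each alternative. The counts are lowest with 1 wild-type array left out, at 62 and 104 higher genes and 125 and 178 lower genes.

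**Figure D3:**
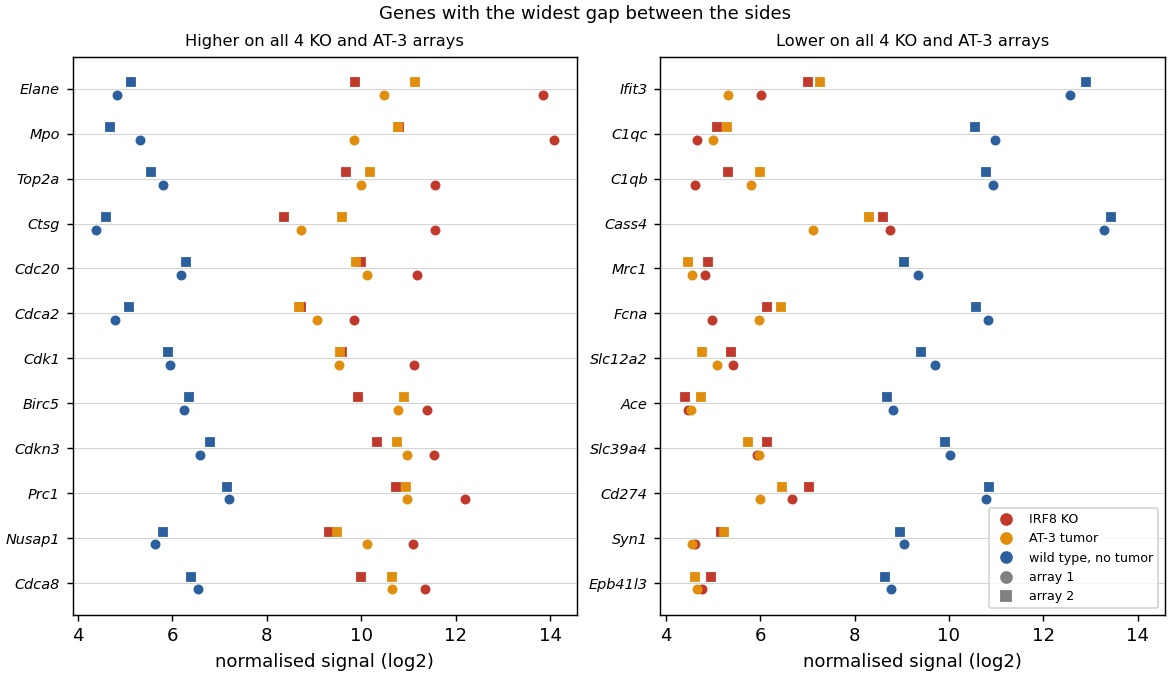
Normalised log2 signal of the 12 genes with the widest gap upward (left) and downward (right), on the 2 IRF8 KO, 2 AT-3 and 2 wild-type arrays, with circles for array 1 and squares for array 2. Gap means the distance between the nearest arrays of the sides. KO array 1 stands above the other 3 arrays for Elane, Mpo and Ctsg, and the wild-type arrays lie close together throughout.

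Genes of the primary granules, which are filled at the promyelocyte stage, stood highest. Elane, neutrophil elastase, read 13.84 and 9.86 on the KO arrays, 10.49 and 11.14 on the AT-3 arrays and 4.83 and 5.12 on the wild-type arrays on the log2 scale. All 4 KO and AT-3 arrays lay at least 4.74 above wild type, and KO array 1 was the highest. The difference was 6.36 ± 1.00 (SE), or 82.1-fold (adjusted p = 0.00698). Mpo, myeloperoxidase, read 14.08 and 10.80 on the KO arrays, 9.84 and 10.78 on the AT-3 arrays and 5.32 and 4.68 on the wild-type arrays, a difference of 6.38 ± 1.06 (83.1-fold, adjusted p = 0.00833). Wild-type cells were near the detection limit for both genes, with 1 of 2 arrays detected. Ctsg, the serine protease cathepsin G, read 11.56 and 8.36 on the KO arrays, 8.73 and 9.59 on the AT-3 arrays and 4.37 and 4.59 on the wild-type arrays, and it was detected on neither wild-type array. Where 1 side was detected on none of its arrays, the fold is a bound. It sets the mean of the brighter side against, per dim array, the lowest signal that counted as detected or the gene's own value, whichever was higher. Ctsg was at least 24.2-fold higher (adjusted p = 0.00772). Such bounds hold for 125 of the higher and 151 of the lower genes. Each of these genes passed the filter through its brighter side alone, so the filter favoured its direction.

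Of 12 measured primary granule genes, 8 were higher (66.7%, against 10% of all genes), 1 was lower and 3 did not pass, with a median of 3.71, or 3.60 with bounded genes at their bound. The 8 include Aprt, a purine salvage enzyme that is no granule protein (5-fold, adjusted p = 0.00261). Prtn3, proteinase 3, was 28.7-fold higher (4.84 ± 0.96, adjusted p = 0.014), and Serpinb1a, an inhibitor of those proteases, 10.4-fold (3.38 ± 0.43, adjusted p = 0.00378). Ms4a3, a membrane protein gene of granulocyte-monocyte progenitors, was at least 14.2-fold higher, and Fcnb, ficolin B, 17.3-fold. Probes differed for Ms4a3, with another at 1.15 that did not pass, and for Mpo, where another passed at 5.50 and 2 at 3.90 and 2.89 did not. The exception was Srgn, the serglycin core protein to which granule proteases bind, at 8.88 and 9.54 on the KO arrays, 8.49 and 9.90 on the AT-3 arrays and 11.75 and 11.79 on the wild-type arrays (5.93-fold lower, -2.57 ± 0.40, adjusted p = 0.00685). Ctsc, the protease that activates elastase, cathepsin G and proteinase 3, did not pass (-0.49), and it read 6.89 and 6.75 on the KO arrays, 12.17 and 12.61 on the AT-3 arrays and 10.16 and 10.04 on the wild-type arrays. Wild type lay between the expanded settings for that gene. With no filter on dim probes, 5 of 13 primary granule genes were called higher, and with no scaling between arrays 5. The counts depended on the wild-type arrays: 1 gene of this list was called higher without wild-type array 1, and 0 without wild-type array 2 by limma, where 8 were at an unadjusted p under 0.05. Elane, Mpo, Ctsg and Srgn lost the call in both of those fits, while Elane stayed between 6.21 and 6.51 and Mpo between 6.06 and 6.69.

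The promoter of Elane is shown as that of a gene with 1 of the widest gaps. The 250 bases before its start lie at chr10:79886062-79886311 (plus strand of GRCm38.p6, from RefSeq), printed 5′ to 3′. Capitals mark a match to GAGGAAGT, letters bound by PU.1 family factors, and 1 to CCAAT, searched on both strands and not overlapping.
Elane: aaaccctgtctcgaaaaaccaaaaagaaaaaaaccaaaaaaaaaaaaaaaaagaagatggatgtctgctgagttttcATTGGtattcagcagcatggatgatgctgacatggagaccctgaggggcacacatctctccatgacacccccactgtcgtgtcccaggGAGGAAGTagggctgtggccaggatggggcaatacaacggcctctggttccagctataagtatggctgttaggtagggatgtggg
GAGGAAGT was in 4 of 13 windows of measured primary granule genes (30.8%), against 3.51% of all windows of 300 bases around gene starts. A match describes letters only.

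Secondary granule genes were higher in part. Of 20 measured genes, 10 were higher (50%, against 10% of all genes) and 10 did not pass. The median was 1.26 over the brightest probes. Cd177, a neutrophil surface glycoprotein, read 14.85 and 14.93 on the KO arrays, 14.49 and 14.44 on the AT-3 arrays and 12.28 and 12.19 on the wild-type arrays (5.42-fold, 2.44 ± 0.23, adjusted p = 0.00184). Its arrays were tight on both sides, and it was called under every alternative. Olfm4, olfactomedin 4 of a neutrophil subset, was 8.14-fold higher (3.03 ± 0.57, adjusted p = 0.0119), Chil3, the chitinase-like protein Ym1, 3.82-fold, and Camp and Ngp, cathelicidin and neutrophilic granule protein, 2.16-fold and 2.49-fold. Ltf, Lcn2 and Lyz2, lactoferrin, lipocalin 2 and lysozyme, were at 0.24, -0.10 and -0.01 on their brightest probes and did not pass. Dimmer probes of these genes gave other values. A second Ltf probe was higher by 3.04 (limma adjusted p = 0.0024 over all probes), and 2 further Lyz2 probes by 1.12 and 1.31 (adjusted p = 0.0333 and 0.00625). Dimmer probes were also at 4.25 for Cd177 and at 2.93 and 3.99 for Chil3, all called. With probes averaged, 12 genes of the list were called higher. Without wild-type array 1, 2 genes of the list were called higher, and 1 without wild-type array 2. With no scaling, or with arrays brought to 1 median over all probes, 2 were called higher in each case.

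Genes of mature neutrophils and tertiary granules were lower in part. Of 28, 11 were lower (39.3%, against 11.9% of all genes), 2 were higher and 15 did not pass, with a median of -0.955. Mmp9 and Retnlg were among those that did not pass. Csf3r, the receptor for granulocyte colony-stimulating factor, read 11.10 and 11.19 on the KO arrays, 10.65 and 11.97 on the AT-3 arrays and 13.39 and 13.39 on the wild-type arrays (4.48-fold lower, adjusted p = 0.00821). Cxcr2, the receptor by which neutrophils leave the marrow, was 2.94-fold lower (adjusted p = 0.0437), and Ccl6, a chemokine gene of mature granulocytes, 8.44-fold lower (-3.08 ± 0.32, adjusted p = 0.00222). Clec4d, a C-type lectin receptor, was 7.84-fold lower. The 2 higher genes were Itgam, the CD11b integrin chain by which the cells were sorted (3.61-fold), and Wfdc21, a whey acidic protein family gene (3.91-fold). Ccl6 was called under every alternative. For the list, 1 gene was called lower without wild-type array 1 and 1 without wild-type array 2, and Csf3r, Cxcr2 and Clec4d lost the call there. The list had 7 lower calls without KO array 1 and 7 without AT-3 array 1. Cxcr2 was called in 11 of 18 alternatives, and its call was lost also without KO array 1, without KO array 2 and without AT-3 array 1. Other Csf3r probes lay between -3.35 and -1.16, and the one at -1.16 did not pass.

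Among 15 transcription factors of granulopoiesis, 4 were lower (26.7%, against 11.9% of all genes) and 11 did not pass, with a median of -0.30. Cebpb, the factor of emergency granulopoiesis, was 3.11-fold lower (-1.64 ± 0.30, adjusted p = 0.0112), Spi1, which encodes PU.1, 2.82-fold, Rara, a retinoic acid receptor, 4.86-fold and Cebpd 2.07-fold, with a second Cebpd probe at 0.02 that did not pass. Cebpe and Gfi1, factors of the promyelocyte to myelocyte step, had differences of 2.17 and 2.17 that did not pass, and their AT-3 minus KO differences were -2.02 and -2.59. Of the other Cebpe probes 1 passed, at 2.13. Without AT-3 array 1, 2 of the list were lower, and 2 were higher without AT-3 array 2. None of the 4 lower genes was called by limma without either wild-type array, where 4 genes of the list were lower at an unadjusted p under 0.05 in each fit.

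Genes of cell division were higher on all 4 KO and AT-3 arrays. Of 24 measured G2/M and mitosis genes, 19 were higher (79.2%, against 10% of all genes) and 5 did not pass. The median was 3.14. On neither wild-type array were 7 of the 24 detected, so these passed the filter through KO and AT-3 arrays alone. With no filter on dim probes, 17 of 32 were called higher. Top2a, the topoisomerase that untangles chromosomes, read 11.56 and 9.67 on the KO arrays, 9.99 and 10.19 on the AT-3 arrays and 5.80 and 5.55 on the wild-type arrays (25.6-fold, 4.68 ± 0.50, adjusted p = 0.00242). KO array 1 was highest and the other 3 lay close together. Dimmer Top2a probes were at 2.29, which passed, and 0.47, which did not. Birc5, survivin of the chromosomal passenger complex, read 11.39 and 9.93 on the KO arrays, 10.77 and 10.91 on the AT-3 arrays and 6.25 and 6.36 on the wild-type arrays (21.8-fold, adjusted p = 0.00152). Cdk1, the mitotic kinase, was 16.2-fold higher (4.02 ± 0.47, adjusted p = 0.00295) and Cdc20, an activator of the anaphase-promoting complex, 16.8-fold (4.07 ± 0.38, adjusted p = 0.00175). All 4 Cdc20 probes passed, at 2.43 to 4.15. Nusap1, a spindle protein, was 19.6-fold higher, and Prc1, which bundles the midzone microtubules, 16.4-fold. Outside that list, Cdca8, borealin of the passenger complex, was 18.4-fold higher, Cdkn3, a phosphatase of cyclin-dependent kinases, 18.5-fold, and Cdca2, a phosphatase regulator on chromosomes, 17.7-fold, with detection on 1 wild-type array. Top2a, Birc5, Cdc20, Nusap1, Prc1, Cdca8, Cdkn3 and Cdca2 were called under every alternative that gave a value, and Cdk1 was lost only without wild-type array 2 (adjusted p = 0.053). For the list, 12 genes were called without wild-type array 1 and 7 without wild-type array 2.

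Of 24 measured S phase and replication genes, 18 were higher (75.0%) and 6 did not pass, and the list's median was 2.47 (2.30 once bounded genes stood at their bound). Uhrf1, which maintains DNA methylation at the replication fork, read 11.11 and 8.67 on the KO arrays, 9.66 and 10.11 on the AT-3 arrays and 5.17 and 5.74 on the wild-type arrays (21.6-fold, 4.43 ± 0.61, adjusted p = 0.00482). KO array 2 was the lowest of the 4 and still 2.93 above wild type. Tyms, thymidylate synthase, was at least 17.2-fold higher (adjusted p = 0.00517), with a second probe at 1.84 that passed, and Mcm5, a subunit of the replicative helicase, 15.7-fold (adjusted p = 0.01). The summed signal of these S phase genes was 20170 and 4345 on the KO arrays, 8715 and 11770 on the AT-3 arrays and 1975 and 1957 on the wild-type arrays. All 4 KO and AT-3 sums were above wild type, and KO array 2 was the lowest of them. Without wild-type array 1, 0 S phase genes were called by limma and 18 were at an unadjusted p under 0.05, and without wild-type array 2 the numbers were 1 and 18. With AT-3 array 1 left out, 10 were called. In sorted bulk cells, more cells of a dividing type and more RNA per cell cannot be told apart. The same holds for every lower gene below and fewer cells of a type.

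Most promoter windows of the mitotic genes held short letters that are known in cell cycle promoters. Those of Cdk1, Cdc20 and Top2a are shown because these genes had among the widest gaps and carried the letters searched for. Windows from RefSeq of GRCm38.p6, 250 bases before to 50 after each start, were searched on both strands for CCAAT and for TTTGAA, the core of the cell cycle homology region. The bases before the start are printed 5′ to 3′ on the gene's strand, with matches in capitals, and no matches overlap. They lie at chr10:69352913-69353162 (minus strand) for Cdk1, chr4:118437344-118437593 (minus strand) for Cdc20 and chr11:99024190-99024439 (minus strand) for Top2a.
Cdk1: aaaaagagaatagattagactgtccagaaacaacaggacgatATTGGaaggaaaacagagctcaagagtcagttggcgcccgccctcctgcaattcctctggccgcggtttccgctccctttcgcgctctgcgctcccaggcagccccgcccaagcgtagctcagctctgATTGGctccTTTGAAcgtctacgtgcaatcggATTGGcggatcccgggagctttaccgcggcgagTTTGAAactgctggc
Cdc20: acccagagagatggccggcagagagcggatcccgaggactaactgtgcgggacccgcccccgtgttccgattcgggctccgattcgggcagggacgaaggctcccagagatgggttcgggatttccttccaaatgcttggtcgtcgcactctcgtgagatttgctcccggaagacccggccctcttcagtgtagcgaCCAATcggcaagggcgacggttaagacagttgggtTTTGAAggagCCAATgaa
Top2a: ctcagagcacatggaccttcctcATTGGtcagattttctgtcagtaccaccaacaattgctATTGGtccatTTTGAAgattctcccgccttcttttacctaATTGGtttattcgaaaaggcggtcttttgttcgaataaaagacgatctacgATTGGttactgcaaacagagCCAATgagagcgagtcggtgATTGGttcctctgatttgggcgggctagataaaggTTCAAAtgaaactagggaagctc
TTTGAA was in 19 of the 22 windows of measured G2/M genes (86.4%), against 12.4% of the 9953 windows of all genes tested and 16.8% of those of all higher genes. CCAAT was in 77.3% of the G2/M windows, against 37.8% of all windows. In S phase windows the shares were 11.5% and 46.2%. Birc5, Nusap1 and Prc1 also had among the widest gaps. In the 250 bases before the start, Birc5 and Nusap1 matched neither motif, and Prc1 matched CCAAT only. A match describes the letters only and is no measured binding site.

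Interferon-stimulated genes, which make antiviral proteins, were lower. Ifit3, an antiviral protein with tetratricopeptide repeats, had the widest gap downward. It read 6.03 and 7.02 on the KO arrays, 5.33 and 7.28 on the AT-3 arrays and 12.57 and 12.90 on the wild-type arrays. The nearest arrays of the sides were 5.29 apart, and the difference was -6.32 ± 0.54 (79.9-fold lower, adjusted p = 0.00146). A dimmer Ifit3 probe was at -2.48 and passed. Of 32 measured genes, 18 were lower (56.2%, against 11.9%) and 14 did not pass, with a median of -1.81. Oasl1, of the oligoadenylate synthetase family, was 27.6-fold lower (-4.79 ± 0.66, adjusted p = 0.00482), and Irf7, the factor that amplifies type I interferon, 13.7-fold (-3.78 ± 0.59, adjusted p = 0.00685). Rsad2, viperin, was 11.2-fold lower, Usp18, which removes ISG15 from proteins, 11.5-fold, and Isg15 itself 6.51-fold. A second Usp18 probe at -0.74 did not pass. Oasl1 was detected on 3 of the 4 KO and AT-3 arrays. AT-3 array 2 was nearer to wild type than AT-3 array 1 for Oasl1, at 7.37 and 4.81, and the summed signal of the list was 23440 and 37030 on the KO arrays, 25120 and 42170 on the AT-3 arrays and 66740 and 70510 on the wild-type arrays. Bst2, Ifitm3 and Oas1a, also interferon-stimulated, were at -0.20, -0.23 and -0.18 and did not pass. Ifit3 was called under every alternative that gave it a value. In all, 2 genes of the list were called without wild-type array 1 and 2 without wild-type array 2, with 17 at an unadjusted p under 0.05 in each, and Irf7 and Oasl1 lost the call in both.

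The promoter of Ifit3 is shown because it carried 3 matches to GAAANNGAA, the letters of an interferon response element. The 250 bases before its start lie at chr19:34583279-34583528 (plus strand of GRCm38.p6, from RefSeq), printed 5′ to 3′ with that motif on either strand in capitals, along with 1 CCAAT match, without overlaps.
Ifit3: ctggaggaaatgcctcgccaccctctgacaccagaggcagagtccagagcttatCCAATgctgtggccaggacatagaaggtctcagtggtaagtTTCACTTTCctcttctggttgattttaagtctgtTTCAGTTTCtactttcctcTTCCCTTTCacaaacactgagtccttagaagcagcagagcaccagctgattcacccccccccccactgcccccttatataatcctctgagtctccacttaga
The motif was in 14 of 27 windows of measured interferon-stimulated genes (51.9%), in 9.92% of the windows of all lower genes and in 7.32% of all windows. Binding was not measured.

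Markers of red pulp and other macrophages were lower on all 4 arrays. Of 21 measured, 16 were lower (76.2%, against 11.9% of all genes) and 5 did not pass, with a median of -2.74. C1qc, a chain of complement C1q made by macrophages, read 4.66 and 5.10 on the KO arrays, 5 and 5.30 on the AT-3 arrays and 10.97 and 10.56 on the wild-type arrays. It was detected on 2 of the 4 KO and AT-3 arrays, and the difference was -5.75 ± 0.26 (53.7-fold lower, adjusted p = 0.000484). C1qb was 43.1-fold lower (-5.43 ± 0.39) and C1qa, detected on none of the 4, at least 11.4-fold lower. Mrc1, the macrophage mannose receptor, read 4.83 and 4.91 on the KO arrays, 4.56 and 4.47 on the AT-3 arrays and 9.33 and 9.05 on the wild-type arrays (22.7-fold lower, -4.50 ± 0.23, adjusted p = 0.000484). Spic, the transcription factor of red pulp macrophages, was 17.7-fold lower (-4.15 ± 0.26, adjusted p = 0.000977), Vcam1, the adhesion molecule on those macrophages, 21.6-fold (adjusted p = 0.0101), Fcna, ficolin A, 28.1-fold, and Hpgd, which degrades prostaglandins, 10.8-fold. Spic and Hpgd were each detected on 1 of the 4 KO and AT-3 arrays, Mrc1 on 2 and C1qb on 3, so their folds are taken against values at or near background. A dimmer Spic probe was at -1.45 and passed. The summed signal of the marker list was 7701 to 9407 on the KO and AT-3 arrays and 42770 and 39240 on the wild-type arrays. C1qa, Cd163 and Siglec1 were detected on none of the KO and AT-3 arrays and on both wild-type arrays. Csf1r, Apoe, Marco, Trf and Pld3 did not pass. C1qb, C1qc, Mrc1, Spic, Fcna and Hpgd were called under every alternative that gave a value. For the list, 7 genes were called lower without wild-type array 1 and 7 without wild-type array 2. These markers moved together with the interferon, cytokine and antigen presentation genes described here, and their part in those results was not tested.

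Genes of iron and heme handling, a main task of red pulp macrophages, overlap that marker list. With a median of -0.80, 8 of 14 did not pass and 6 were lower (42.9%, against 11.9% of all genes). Beside Spic, Hpgd and Cd163, they were Hmox1, heme oxygenase 1 (6.39-fold lower, adjusted p = 0.00882), Slc40a1, the iron exporter ferroportin (3.76-fold, adjusted p = 0.00315) and Slc11a1, a phagosomal metal transporter (3.92-fold, adjusted p = 0.018). Of 4 Slc11a1 probes, the 2 at -1.48 and -1.32 did not pass. Fth1 and Ftl1, the ferritin chains, were at -0.27 and -0.77 and did not pass. Slc40a1 read 12.82 and 12.64 on the KO arrays, 12.25 and 12.47 on the AT-3 arrays and 14.46 and 14.46 on the wild-type arrays, so it was detected on all 6 arrays. The list had 2 lower calls without wild-type array 1 and 2 without wild-type array 2. Of 17 lysosomal genes, 4 were lower (23.5%) and 1 was higher (5.88%), against 11.9% and 10% of all genes. The other 12 did not pass, and the median was -0.68. Lipa, lysosomal acid lipase, was 4.12-fold lower (adjusted p = 0.00813), Ctsk, cathepsin K, at least 2.02-fold lower, and Glb1, beta-galactosidase, 2.48-fold higher (adjusted p = 0.0244), a call lost without AT-3 array 1 among other alternatives, with a second probe at 0.45 that did not pass. No lysosomal gene was called by limma without either wild-type array, where 1 higher gene and 3 or 4 lower genes were at an unadjusted p under 0.05.

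Of the other genes with a wide gap downward, 5 belonged to none of the lists. Cass4, a scaffold protein of focal adhesions, read 8.75 and 8.61 on the KO arrays, 7.13 and 8.31 on the AT-3 arrays and 13.29 and 13.43 on the wild-type arrays (35.8-fold lower, -5.16 ± 0.45, adjusted p = 0.00152). It was detected on all 6 arrays, and the sides did not overlap. Slc12a2, a sodium, potassium and chloride cotransporter, was 20.9-fold lower (-4.39 ± 0.26, adjusted p = 0.000798), Slc39a4, a zinc importer, 16.2-fold (-4.02 ± 0.21, adjusted p = 0.000484), Syn1, the synaptic vesicle protein synapsin 1, 17.2-fold (-4.10 ± 0.27), and Epb41l3, a membrane skeleton protein, 15.6-fold (-3.96 ± 0.20). Epb41l3 was detected on 1 of the 4 KO and AT-3 arrays, Syn1 on 2 and Slc12a2 on 3. Ace, the angiotensin-converting enzyme and a member of the monocyte marker list, read 4.48 and 4.40 on the KO arrays, 4.53 and 4.76 on the AT-3 arrays and 8.82 and 8.70 on the wild-type arrays. It was detected on none of the 4 and was at least 14.1-fold lower (adjusted p = 0.000484). Cass4, Slc12a2, Slc39a4, Syn1, Epb41l3 and Ace were called under every alternative that gave a value.

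Genes of antigen presentation were lower in part. Of 16 MHC class II presentation genes, 7 were lower (43.8%, against 11.9% of all genes) and 9 did not pass. The median was -1.30. With no filter on dim probes, 1 of 16 was called lower, at the same median. Cd74, the invariant chain, read 9.93 and 10.84 on the KO arrays, 7.76 and 8.76 on the AT-3 arrays and 11.94 and 12.33 on the wild-type arrays (7.02-fold lower, -2.81 ± 0.78, adjusted p = 0.0421), and AT-3 arrays lay below KO arrays. Cd74 was called in 9 of 18 alternatives, at differences between -3.32 and -2.29. Its call was lost also without KO array 1, without either AT-3 array, with the replicate block and with no filter on dim probes. H2-Ab1 and H2-Eb1, class II chains, were 6.26-fold and 5.90-fold lower, and Cd80, a costimulatory ligand, 5.49-fold (adjusted p = 0.00882). Cd80 was detected on 3 of the 4 KO and AT-3 arrays, and a second probe at -0.71 did not pass. H2-DMa and Ifi30, which load and prepare peptides, were at 0.20 and 0.24. Without wild-type array 1 none of this list was called by limma and 7 were at an unadjusted p under 0.05, and without wild-type array 2 none and 1, and without KO array 1 only 1 gene was called. Leaving out AT-3 array 1 or AT-3 array 2 left 3 each, and the replicate block 3. Of 15 MHC class I and immunoproteasome genes, 4 were lower (26.7%, against 11.9% of all genes) and 11 did not pass. The median was -0.73. Nlrc5, the class I transactivator, was 4.93-fold lower (adjusted p = 0.00482) and H2-T23, a nonclassical class I gene, 3.08-fold, beside H2-Q7 and H2-D1, which have near-identical relatives and are uncertain. Further probes at -0.86 for H2-T23 and -0.51 for H2-Q7 did not pass, and H2-D1 had one at -2.11 that passed. Class I genes too were called by limma in neither fit with 1 wild-type array, where 3 and 5 were at an unadjusted p under 0.05.

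Of 23 genes ascribed to myeloid suppressor function, 3 were higher (13%, against 10% of all genes), 8 lower (34.8%, against 11.9%) and 12 did not pass, with a median of -0.25. Cd274, the gene of PD-L1, a ligand that restrains T cells, had one of the widest gaps. It read 6.68 and 7.04 on the KO arrays, 5.99 and 6.47 on the AT-3 arrays and 10.78 and 10.85 on the wild-type arrays (19.3-fold lower, -4.27 ± 0.31, adjusted p = 0.00126), and it was called under every alternative. Arg2, arginase 2, was 6.18-fold lower (adjusted p = 0.02). Arg1 and Nos2, which deplete arginine and make nitric oxide, were at -0.00 and 0.21 and did not pass. Ptges, prostaglandin E synthase, was at least 2.08-fold higher (adjusted p = 0.0273), Anxa1, annexin A1, 3.36-fold (adjusted p = 0.00786) and Lgals3, galectin 3, 1.97-fold. Ptges lost the call in 11 alternatives, and a second probe at 0.36 did not pass. The list had 1 higher call without AT-3 array 1. Without wild-type array 1 and without wild-type array 2, 0 genes were called higher by limma and 1 was called lower, with 3 higher and 8 lower at an unadjusted p under 0.05 in both.

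**Figure D4:**
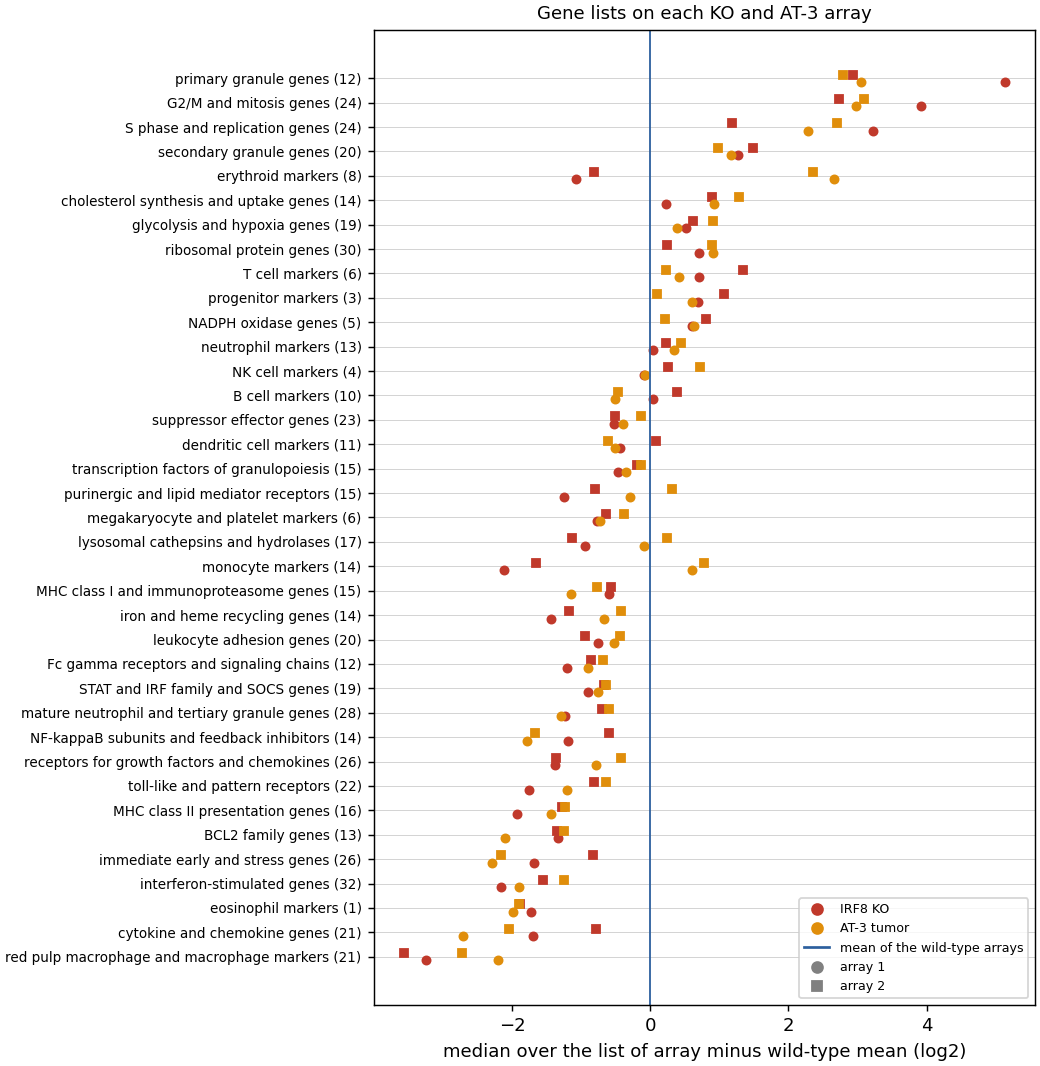
Median over the measured members of each gene list (number in brackets) of 1 array minus the wild-type mean, on the log2 scale, for the 2 IRF8 KO and 2 AT-3 arrays, with circles for array 1 and squares for array 2 and the wild-type mean at 0. Primary granule and cell division lists lie to the right on all 4 arrays and macrophage, cytokine and interferon lists to the left, while KO and AT-3 arrays fall on opposite sides for the erythroid and monocyte markers.

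Genes that respond within minutes to stimulation were lower in part. Of 26 immediate early and stress genes, 11 were lower (42.3%, against 11.9% of all genes) and 15 did not pass. The median was -1.69. Junb, an AP-1 subunit, read 11.74 and 12.84 on the KO arrays, 11.35 and 12.09 on the AT-3 arrays and 14.82 and 14.94 on the wild-type arrays (7.35-fold lower, -2.88 ± 0.40, adjusted p = 0.00496). Atf3, a stress-induced factor, was 12.2-fold lower (-3.60 ± 0.48, adjusted p = 0.00438), Ppp1r15a, a stress phosphatase subunit, 6.89-fold and Egr2 7.74-fold, the last detected on 2 of the 4 KO and AT-3 arrays. Fos and Jun were at -0.81 and -0.67 and did not pass. AT-3 arrays were lower than KO arrays for 9 of these genes and higher for 1 in a limma fit with a mean per group, against 11.5% of all genes that differed either way between AT-3 and KO. Of 14 NF-kappaB subunits and feedback inhibitors, 7 were lower (50%, against 11.9% of all genes) and 7 did not pass. The median was -1.04. The lower genes included Tnfaip2 (4.81-fold, adjusted p = 0.00292), Icam1, the integrin ligand (5.41-fold, adjusted p = 0.00995), and Relb (5.06-fold). Of 21 cytokine and chemokine genes, 9 were lower (42.9%, against 11.9% of all genes) and 12 did not pass, with a median of -1.91. Csf1, the macrophage growth factor, read 5.16 and 5.05 on the KO arrays, 4.96 and 5.54 on the AT-3 arrays and 8.78 and 8.85 on the wild-type arrays (12.5-fold lower, -3.64 ± 0.23, adjusted p = 0.000977), with detection on 3 of the 4 KO and AT-3 arrays. Il1b, interleukin 1 beta, was 11.4-fold lower (-3.51 ± 0.78, adjusted p = 0.0206), Ccl4, a chemokine gene, 11.4-fold and Tnfsf14, the ligand LIGHT, 6.42-fold. Of 3 Tnfsf14 probes, 1 at 0.17 did not pass. Csf1 was called under every alternative that gave a value, and Junb, Icam1 and Il1b lost the call in both fits with 1 wild-type array. Lower calls in these lists were 2, 1 and 5 without wild-type array 1, and without wild-type array 2 they were 0, 0 and 3 by limma, with 11, 6 and 9 at an unadjusted p under 0.05. Without KO array 2, 18 immediate early and 14 cytokine genes were lower, and NF-kappaB genes numbered 4 without KO array 1 and 4 without AT-3 array 1.

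Of 26 receptors for growth factors and chemokines, 8 were lower (30.8%, against 11.9% of all genes) and 18 did not pass. The median was -1.09. Tgfbr2, a receptor for transforming growth factor beta, read 9.06 and 9.69 on the KO arrays, 9.54 and 10.01 on the AT-3 arrays and 11.97 and 11.93 on the wild-type arrays (5.19-fold lower, adjusted p = 0.00332). Tnfrsf1b, a receptor for tumor necrosis factor, was 6.5-fold lower (adjusted p = 0.0214), and Cx3cr1, the fractalkine receptor of monocytes, 6.10-fold (adjusted p = 0.0144), with detection on 3 of the 4 KO and AT-3 arrays. A second Tnfrsf1b probe at -0.68 did not pass. Csf1r, the receptor for Csf1, was at -2.74 and did not pass, with AT-3 above KO arrays by 2.56. Of 22 toll-like and pattern receptor genes, 7 were lower (31.8%, against 11.9% of all genes) and 15 did not pass. The median was -1.13. Clec4n, the lectin receptor dectin-2, was 19.9-fold lower (-4.31 ± 0.36, adjusted p = 0.00146) and was called under every alternative, Clec7a, dectin-1, was 8.78-fold lower and Tlr4, the receptor for endotoxin, 3.63-fold, with a second Tlr4 probe at -1.23 that did not pass. Of 12 Fc gamma receptor and signaling genes, 4 were lower (33.3%) and 1 was higher (8.33%), against 11.9% and 10% of all genes. The other 7 did not pass, and the median was -0.84. Fcgr2b, the inhibitory Fc receptor, was 2.03-fold higher after quantile normalization (adjusted p = 0.0164), while Inpp5d and Ptpn6, the phosphatases SHIP1 and SHP-1, were 2.11-fold and 1.79-fold lower. The Fcgr2b call was lost under each other scaling, without either wild-type array and with averaged probes, at values down to 0.54. Its other probes were at -0.21, 0.43, 0.60 and 0.85, of which the highest passed. The raw Fcgr2b signal was 1933.4 and 1957.5 on the KO arrays, 768.9 and 697.1 on the AT-3 arrays and 853 and 804.8 on the wild-type arrays, so the AT-3 arrays were below wild type before normalization. With 1 wild-type array left out, 0 receptor and 0 Fc receptor genes were called by limma in either fit and 2 pattern receptor genes in each, where 8 and 10 receptor genes and 4 and 3 Fc receptor genes were lower at an unadjusted p under 0.05. Growth factor and chemokine receptors had 5 lower calls without KO array 1 and 5 without AT-3 array 1.

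In the STAT, IRF and SOCS family, 7 of 19 genes were lower (36.8%) and 1 was higher (5.26%), against 11.9% and 10% of all genes. The other 11 did not pass, and the median was -0.89. The higher gene was Cish, a feedback inhibitor induced by STAT5, at 8.86 and 9.80 on the KO arrays, 9.10 and 8.39 on the AT-3 arrays and 6.42 and 6.72 on the wild-type arrays (5.55-fold higher, 2.47 ± 0.38, adjusted p = 0.00671). Socs3, a feedback inhibitor induced by STAT3, went the other way, at 9.55 and 8.85 on the KO arrays, 10.09 and 11.89 on the AT-3 arrays and 13.42 and 13.36 on the wild-type arrays (9.79-fold lower, -3.29 ± 0.75, adjusted p = 0.0225). Irf1 was 3.43-fold lower (adjusted p = 0.00407), and Irf9 and Stat2, subunits of the interferon-activated complex, 2.77-fold and 2.54-fold, with a second Irf9 probe at -0.75 that did not pass. Stat3 and Stat5a were at -0.40 and -0.53 and did not pass. No gene of the family was called by limma without either wild-type array, with 1 higher and 6 or 7 lower at an unadjusted p under 0.05. Lower calls numbered 4 without KO array 1 and 4 without AT-3 array 1.

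Survival and adhesion genes were lower more often than higher. Of 13 BCL2 family genes, 8 were lower (61.5%, against 11.9% of all genes) and 1 was higher (7.69%, against 10%). The other 4 did not pass, and the median was -1.54. The lower ones were of opposed function: Bcl2a1b and Bcl2a1d, near-identical survival genes whose probes may share signal, were 9.97-fold and 13.4-fold lower, and the death-promoting Bcl2l11, which encodes BIM, and Bmf were 5.32-fold and 5.15-fold lower. A second Bcl2a1d probe was at -1.38 and passed, and Bmf was detected on 3 of the 4 KO and AT-3 arrays. Bcl2a1b read 6.70 and 7.23 on the KO arrays, 6.32 and 6.06 on the AT-3 arrays and 9.83 and 9.96 on the wild-type arrays. Mcl1, which neutrophils need to survive, was 2.18-fold lower (adjusted p = 0.0108). Bcl2l2, the survival gene that was higher (3.63-fold, adjusted p = 0.0394), lost the call in 12 alternatives, and 2 of its probes were at -0.56 and -0.65. It was among the calls lost without KO array 2 and without AT-3 array 1. The family had 4 lower calls without wild-type array 1 and 2 without wild-type array 2. Of 20 leukocyte adhesion genes, 3 were higher (15%, near the 10% of all genes), 8 lower (40%, against 11.9%) and 9 did not pass, with a median of -0.80. Itgb2l, an integrin beta chain of granulocytes, was 8.65-fold higher (3.11 ± 0.34, adjusted p = 0.00243) with a dimmer probe at 5.55 that passed, and Jaml, a junctional adhesion molecule, 11.1-fold lower (-3.48 ± 0.27, adjusted p = 0.00137). Jaml was called under every alternative, and 2 and 1 adhesion genes were higher and 1 and 1 lower without wild-type array 1 and without wild-type array 2. Of 15 purinergic and lipid mediator receptors, 4 were higher (26.7%) and 4 lower (26.7%), against 10% and 11.9% of all genes. The other 7 did not pass, and the median was -0.49. Ltb4r1, the leukotriene B4 receptor, and S1pr4, a sphingosine phosphate receptor, were 4.23-fold and 5.04-fold higher, and P2ry2, a nucleotide receptor detected on 2 of the 4 KO and AT-3 arrays, 2.76-fold lower. In those receptors, 1 gene was called without wild-type array 1 and 0 by limma without wild-type array 2, with 4 higher and 4 lower at an unadjusted p under 0.05.

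Metabolic, ribosomal and NADPH oxidase gene lists had medians of 0.60 to 0.85, while single genes moved more. Of 19 glycolysis and hypoxia genes, 8 were higher (42.1%, against 10%), 2 lower and 9 did not pass, with a median of 0.77. Tpi1, triosephosphate isomerase, read 11.95 and 11.56 on the KO arrays, 12.17 and 12.18 on the AT-3 arrays and 10.68 and 10.65 on the wild-type arrays (2.46-fold, adjusted p = 0.0123). Of its other probes, 1 at 1.37 passed and 1 at 0.48 did not. Pgk1, phosphoglycerate kinase, was 1.98-fold higher after quantile normalization. Its raw signal was 3934.3 and 4345.3 on the KO arrays, 1963.5 and 1938.6 on the AT-3 arrays and 2191.6 and 1943.5 on the wild-type arrays. AT-3 and wild-type arrays thus overlapped before normalization. Ndrg1 and Pfkfb4, which hypoxia induces, were 2.26-fold and 1.94-fold lower, Pfkfb4 with opposite signs between probe choices. Of 14 cholesterol synthesis and uptake genes, 3 were higher (21.4%) and 1 lower (7.14%), against 10% and 11.9% of all genes. The other 10 did not pass, and the median was 0.85. Fdps, farnesyl diphosphate synthase, was 6.38-fold higher (2.67 ± 0.36, adjusted p = 0.00445), and Sc5d, a late enzyme of the pathway, 2.59-fold lower. Of 30 ribosomal protein genes, 7 were higher (23.3%, against 10% of all genes) and 23 did not pass, with a median of 0.72. Rpl32 was among the higher genes (3.10-fold, adjusted p = 0.0266). The count changed with single arrays, at 15 higher without KO array 2, 1 without KO array 1, 0 by limma without AT-3 array 1 (10 at an unadjusted p under 0.05) and 2 without AT-3 array 2. The replicate block gave 3, and Rpl32 lost its call in 9 of 18 alternatives. None of the 5 NADPH oxidase genes passed in limma, with 3 at an unadjusted p under 0.05 and a median of 0.60, and 2 passed without AT-3 array 2. Glycolysis and hypoxia genes had 4 higher calls without AT-3 array 1, 4 without AT-3 array 2 and 4 with the replicate block, and cholesterol genes 6 without KO array 1. No glycolysis, cholesterol or ribosomal gene was called by limma without either wild-type array, where 9 and 5, 3 and 3, and 6 and 6 of them were higher at an unadjusted p under 0.05. With no scaling between arrays, 0 glycolysis and 0 ribosomal genes were called, at medians of 0.35 and 0.35. Tpi1 and Pgk1 lost the call also when arrays were brought to 1 median over detected probes.

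KO and AT-3 arrays did not agree everywhere, and the pooled test leaves out where they part. Between AT-3 and KO arrays, a comparison that uses no wild-type array, 1436 genes differed (11.5%). Of these, 1275 were not called in the pool and 161 were. Among the higher genes of the pool, AT-3 arrays were above KO arrays for 31 and below for 51, and among the lower genes above for 42 and below for 37. Irf8, the gene disrupted in the KO mice, read 8.82 and 8.09 on the AT-3 arrays, 4.85 and 5.34 on the KO arrays, against 6.86 and 6.70 on the wild-type arrays. The wild-type arrays lay between the others, and the pooled difference was -0.01 ± 1.12 (adjusted p = 0.996), and AT-3 arrays were above KO arrays by 3.36 (adjusted p = 0.00104). The sources used here do not place the Irf8 probe inside or outside the deletion, so these levels check the labels only in part.

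**Figure D5:**
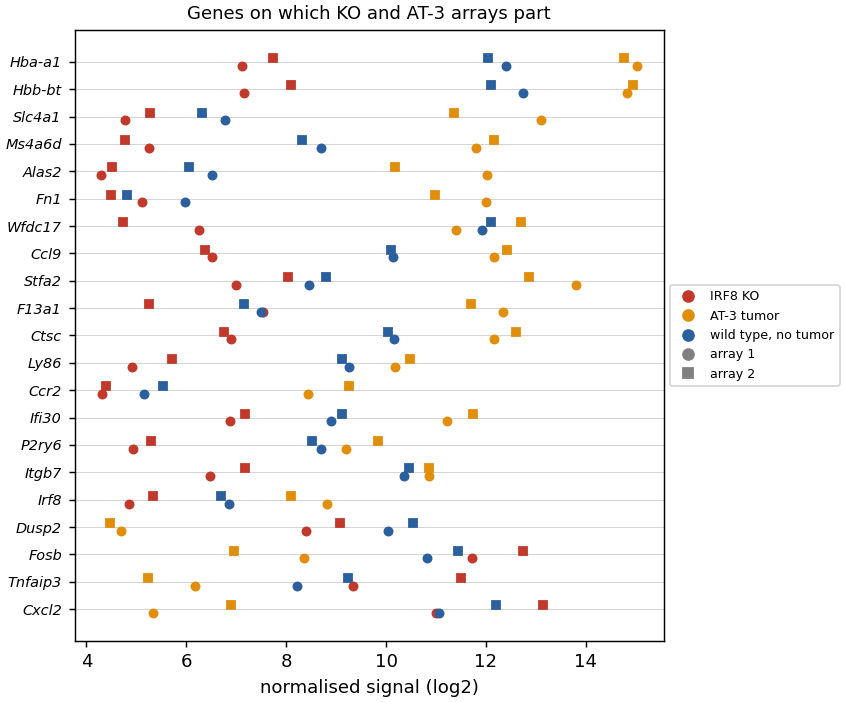
Normalised log2 signal on the 2 IRF8 KO, 2 AT-3 and 2 wild-type arrays of Irf8 and of 20 list members that were not called in the pool and differed between AT-3 and KO arrays by at least 4 on the log2 scale, with circles for array 1 and squares for array 2. AT-3 arrays lie above KO arrays for all but the lowest 4 genes, and wild-type arrays often lie between them.

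Monocyte and erythroid markers had medians of opposite sign in the expanded settings, as had the B cell, lysosomal and purinergic lists. The last 3 medians, from shared wild-type arrays, were -0.46, 0.08 and 0.02 for AT-3 and 0.12, -0.89 and -0.99 for KO. Genes that differed between AT-3 and KO arrays occurred in other lists too, with AT-3 higher for 5 and lower for 2 of 16 MHC class II genes, and higher for 7 and lower for 1 of 26 growth factor and chemokine receptors. Of 14 monocyte markers, 1 was higher (7.14%) and 3 lower (21.4%) in the pool, against 10% and 11.9% of all genes, and 10 did not pass. The median difference from the shared wild-type arrays was 0.74 for AT-3 and -1.92 for KO. AT-3 arrays were above KO arrays for 8 of the 14. Fn1, fibronectin, read 12 and 10.98 on the AT-3 arrays, 5.12 and 4.5 on the KO arrays, against 5.98 and 4.81 on the wild-type arrays, so only the AT-3 arrays were high. Dimmer Fn1 probes had pooled differences of 0.51 and 1.18. Ms4a6d, a monocyte membrane protein gene, read 11.81 and 12.17 on the AT-3 arrays, 5.24 and 4.77 on the KO arrays, against 8.70 and 8.32 on the wild-type arrays, with wild type in between. Ly6c1, a monocyte and granulocyte surface antigen gene, was higher on all 4 arrays (3.32-fold, adjusted p = 0.00291) but shares much sequence with its neighbours in the Ly6 family. Without AT-3 array 1, 2 monocyte markers were higher, and without AT-3 array 2, 5 were lower. None of the 8 erythroid markers passed in limma, with 1 at an unadjusted p under 0.05. Their summed signal was 76220 and 63560 on the AT-3 arrays, 940.9 and 833.5 on the KO arrays, against 12610 and 8973 on the wild-type arrays. AT-3 minus KO differences were 7.47 for Hba-a1 and 7.25 for Hbb-bt, hemoglobin genes with near-identical copies and so of uncertain identity, and 7.22 for Slc4a1, the red cell anion exchanger. The part of red cell RNA in other AT-3 values was not tested.

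Few markers of the remaining cell types passed, and their signal was not low throughout. T cell markers summed to 1890 to 3032 on the KO and AT-3 arrays and 1425 and 1390 on the wild-type arrays. Most of this sum was Cd8b1 on each array, and 4 of the 6 measured T cell markers were detected on neither wild-type array. For B cell markers the sums were 1389 to 2604 and 2080 and 2145, and for NK cell markers 475.5 to 1643 and 395.3 and 517.2. Of 11 dendritic cell markers, 3 were lower (27.3%, against 11.9% of all genes) and 8 did not pass. Their summed signal was 516.2 to 725.9 on the KO and AT-3 arrays and 822.3 and 930.4 on the wild-type arrays. Batf3, a factor of cross-presenting dendritic cells, was 4.87-fold lower (adjusted p = 0.00261), Cd83 6.03-fold and Itgae at least 1.62-fold, with Batf3 and Cd83 each detected on 2 of the 4 KO and AT-3 arrays. None of 10 B cell markers, 4 NK cell markers and 3 progenitor markers passed in limma, with 1, 1 and 0 at an unadjusted p under 0.05. Kit, the stem cell factor receptor among them, was at 1.77. Of 6 T cell markers, 1 was higher (16.7%, against 10% of all genes). It was Cd8b1 (1.88-fold, limma adjusted p = 0.0424), a call lost in 10 alternatives. Cd8b1 read 11.39 and 10.97 on the KO arrays, 10.74 and 10.74 on the AT-3 arrays and 10.11 and 9.99 on the wild-type arrays. Its raw signal was 3325.2 and 2597.5 on the KO arrays, 1072.1 and 995.1 on the AT-3 arrays and 1431.8 and 1247 on the wild-type arrays. The AT-3 arrays were thus below wild type before normalization. Of 6 platelet markers, Vwf was lower, at least 2.36-fold (adjusted p = 0.00336), and the 1 measured eosinophil marker, Ccr3, was lower, at least 2.64-fold (adjusted p = 0.00229). Both Vwf and Ccr3 were detected on none of the KO and AT-3 arrays. They passed the filter through the wild-type arrays alone, which favoured a lower value. With no filter on dim probes, 1 of 7 eosinophil markers was lower at a median of -0.21. For platelet markers it was 1 of 9, at a median of -0.12.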

How the data were processed

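RNA of sorted splenic cells was measured on 6 Illumina bead arrays, 2 per group. The deposited table holds, per the file headers, a probe intensity and a detection p-value for each array, without normalization. The authors' second deposited table holds log2 values, which matched quantile-normalized log2 intensity without background correction and served as an alternative. GenomeStudio was used per the submitters' processing notes, and other tools are not given in the sources used here. Intensities were background-corrected (normexp with detection p-values, offset 16), then quantile-normalized and log2-transformed, all by the neqc function of limma 3.58.1 under R 4.3.3. Of 45281 probes, 17631 passed the filter of a detection p under 0.05 on at least 2 arrays, of which 2472 were detected on exactly 2 arrays, while 4624 detected on exactly 1 were left out. The platform annotation given names 34885 probes with 1 symbol, 18 with several and 10378 with none. Each gene was represented by its brightest probe, and 848 of 3521 genes with several probes had called and uncalled probes and 5 had probes called both ways.

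The 4 KO and AT-3 arrays were fitted against the 2 wild-type arrays with lmFit and eBayes, with Benjamini-Hochberg adjustment over 12492 genes and a threshold of 0.05. A fit with 1 mean per group gave AT-3 minus KO. Genes named are the 12 called genes with the widest gap in each direction (with a symbol, without predicted-gene names), up to 2 per list and direction, Irf8, and members named where their list is described. Members and lists were chosen with earlier results of these data known. The labels do not say whether same-numbered arrays belong together, and the main fit did not pair them. Deviations of same-numbered arrays correlated at 0.007 (AT-3 and KO), 0.086 (KO and wild type) and -0.055 (AT-3 and wild type). These values show no common replicate effect but cannot exclude pairing. Promoter entries were found for 7811 of 9548 named genes. The number of arrays limits the precision. Alternatives covered background correction, scaling, filtering, probe choice, the variance model, the threshold, the replicate block and leaving out each array.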

Additional observations from a re-analysis of the deposited data

Results flagged for a closer look

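Arrays of the expanded settings differed from each other for genes of the lists and for named genes, in a limma fit with a mean per group that tests AT-3 minus KO without the wild-type arrays. Of 530 list members, 102 differed (19.2%, against 11.5% of all genes tested), 84 of which were not called in the pooled comparison. The 20 of those that differed by at least 4 on the log2 scale were picked after their values were seen. AT-3 arrays were higher for the red cell genes Hba-a1 (7.47), Hbb-bt (7.25), Slc4a1 (7.22) and Alas2 (6.69), the globins being of uncertain identity among near-identical copies. They were higher for Ms4a6d (6.98), Fn1 (6.68), F13a1 (5.62), Ccr2 (4.49) and Ly86 (5.01), which monocytes express. AT-3 arrays were also higher for Wfdc17 (6.56), Ccl9 (5.86), Stfa2 (5.82), Ctsc (5.57), Ifi30 (4.46), P2ry6 (4.42) and Itgb7 (4.02). They were lower for the stimulation-induced genes Cxcl2 (-5.96), Tnfaip3 (-4.72), Fosb (-4.58) and Dusp2 (-4.16). Adjusted p-values of these 20 lay between 8.28e-05 for Hba-a1 and 0.00826 for Tnfaip3.

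Of the genes named by rule, 7 differed between AT-3 and KO arrays. Irf8 was higher on AT-3 arrays (3.36, adjusted p = 0.00104 in limma). The other 6 moved the same way from the shared wild-type arrays in both settings, by different amounts. AT-3 minus KO was 1.57 for Tnfrsf1b, -2.15 for Vcam1, -2.12 for Cd74, -1.44 for Olfm4, -1.28 for Bcl2l2 and -1.21 for Bcl2a1d. Groups of 2 arrays cannot be tested for an array that stands apart.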

How the results depend on the processing

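Counts of higher and lower genes stayed within 1.5 times of the reported 1252 and 1486 under other background corrections, the authors' log2 values, another filter, averaged probes, a trended prior and the replicate block (898 higher, 1137 lower). With the median of all probes set equal they were 185 and 790, and with no scaling 139 and 676. The median difference of all genes then moved to -0.11 in both, and to 0.12 with arrays brought to 1 median over detected probes. An adjusted p under 0.01 gave 342 and 541. A fit with 1 mean per group gave 2290 and 2429, with 2051 genes higher on all 4 pool arrays and called and 2284 genes lower on all 4 pool arrays and called. Leaving out 1 array in turn gave 62 to 1565 higher and 125 to 1697 lower genes, the lowest without wild-type array 2 (62 and 125). Of the named genes called as reported in either direction, 90 higher and 137 lower were still called without wild-type array 1, and 57 and 96 without wild-type array 2. Such a fit has fewer arrays, and the lone wild-type array is assumed to vary like the others. Pfkfb4 turned to 0.19 (adjusted p = 0.738 by limma) with averaged probes, where its probes differ in sign. The cause of the other shifts was not tested. Signal near background limits the 125 higher and 151 lower genes given as bounds.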
